A study of Mus musculus with 2 samples.

Results

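The m6A writer, reader and eraser genes are 10 mouse genes whose proteins add, bind or remove the methyl group of N6-methyladenosine in RNA. They were chosen by symbol, as Mettl3, Mettl14, Wtap and Zc3h13 (writers), Ythdc1 (nuclear reader), Ythdf1, Ythdf2 and Ythdf3 (cytoplasmic readers), and Alkbh5 and Fto (erasers), and make up 10 of the 55536 gene rows measured. Their RNA was read in the nuclear fraction of bone-marrow-derived macrophages of C57BL/6J mice. The cells, which are primary cultures, first received Lipid A, the part of bacterial lipopolysaccharide sensed by TLR4, at 100 ng/ml for 12 h. Lipid A was washed out for 12 h and was given again at 100 ng/ml for 120 min, after which RNA depleted of ribosomal RNA was sequenced.

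The labels describe 1 group with 2 biological replicates and no control group, so the levels below are a description of this condition. Both replicates carry the same donor label, separate animals are not stated, and the labels record neither age nor sex, so the spread between them may be technical. Replicate 1 started from 1 µg of RNA and replicate 2 from 500 ng, and input amount and replicate cannot be told apart. The fraction is called nuclear in one label field and nucleoplasmic in another, and its purity was not measured. Mitochondrially encoded genes held 4.15% of the counts in replicate 1 and 10.3% in replicate 2, and the part of this difference in the gene-by-gene comparison of the libraries was not tested.

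In mouse cells, m6A is placed on nascent RNA by a complex with the catalytic subunit METTL3, its partner METTL14, which helps to hold the RNA, and further subunits that place the complex in nuclear speckles and on its targets. Reader proteins with a YTH domain then bind the mark, in the nucleus to affect splicing and export and in the cytoplasm to affect decay and translation, and dioxygenases of the eraser class can remove the methyl group. In macrophages the pathway is known for its bearing on the RNAs of cytokines and interferons.

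The libraries held 28450309 expected counts on genes in replicate 1 and 16940220 in replicate 2. All 8 macrophage markers on the list used for the check were at a TPM (abundance corrected for transcript length) of 1 or more in both libraries. None of the 19 markers of T, B and NK cells, neutrophils, fibroblasts, endothelial and erythroid cells was, and their summed TPM per cell type lay between 0 and 1.77. In the second transcript table, made with another tool, 3 of the 19 reached a TPM of 1 in both libraries, namely Cd3d (1.00 and 5.57), Pecam1 (1.45 and 14.4) and Alas2 (1.45 and 3.41). Short structural RNAs took 72.8% of all TPM in replicate 1 and 53.9% in replicate 2. A gene's TPM therefore also depends on how much of these RNAs a library held, and 83.8% of the 8726 protein-coding genes detected in both libraries had the higher TPM in replicate 2.

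All 10 genes were detected, meaning a TPM of 1 or more in both libraries, as were 39.6% of the 22028 protein-coding genes. Their median was 9.01 TPM in replicate 1 and 12.7 TPM in replicate 2, against 6.53 and 9.53 TPM for the detected protein-coding genes. As in any bulk sample, fewer cells with an RNA and less of it per cell cannot be told apart. The levels spread over more than a factor of 10, with Wtap and Ythdc1 at the top and Mettl14 at the bottom. For Ythdc1 and Mettl3 most of the TPM was assigned to transcripts that do not code for the protein, including transcripts annotated with retained introns. By expected counts the coding transcript Mettl3-201 held 56.7% of Mettl3 in replicate 1 and 43.0% in replicate 2. The splice sites of the retained introns are shown next.

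Ythdc1, on the plus strand of mm10 at chr5:86804221-86836659, encodes the YTH-domain protein of the nucleus, which is known to bind m6A RNA in nuclear bodies and to act on splicing and export. Its transcript Ythdc1-207 carries introns 10 and 11 of the coding transcript Ythdc1-202 whole, and both lie between coding exons. Intron 10 spans 2432 nt (chr5:86828122-86830553) and intron 11 spans 1027 nt (chr5:86830637-86831663). The windows below show 10 exon and 20 intron bases at each end of these introns, 5′ to 3′, from the GENCODE M21 annotation, with the GT that opens and the AG that closes an intron in capitals.
Ythdc1 intron 10 donor: atgtgggaagGTtagaaacgttctttggac
Ythdc1 intron 10 acceptor: aatgtgtctaatttgtgtAGgcgtcgacca
Ythdc1 intron 11 donor: cagagaccagGTtaatattttataatcctg
Ythdc1 intron 11 acceptor: aatgcttgatgtttgaacAGggtatgtaaa

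A second transcript of Ythdc1 needs a closer look at its sequence. Ythdc1-204 is annotated as a retained-intron transcript, but of its 1246 nt only 10 lie outside the exons of the gene's other transcripts, and it holds no whole intron. These are the last 10 bases of the 72-nt intron 13 of Ythdc1-201 (chr5:86831701-86831772), where Ythdc1-204 begins. Nearly all of its sequence is thus exonic and comes from the 3′ part of the gene. The window shows those 10 intron bases and 20 exon bases, with the AG in capitals.
Start of Ythdc1-204: ctgaatttAGttttacaaatcttattccca

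Mettl3, on the minus strand at chr14:52294841-52305128, encodes the catalytic methyltransferase. Its main retained-intron transcript, Mettl3-215, is a single exon of 1504 nt at the start of the gene, of which 1262 bases lie outside other exons, in the 4486-nt intron 1 of the coding transcript Mettl3-201 (chr14:52300402-52304887). Mettl3-203 runs into intron 6 (513 nt, chr14:52296958-52297470) and has 216 bases outside other exons. Mettl3-207 has 374 such bases, nearly all of them just upstream of the exon that follows intron 4 (554 nt, chr14:52298086-52298639). Mettl3-204 holds intron 8, of 82 nt (chr14:52296582-52296663), whole. Its share of the gene was under the 10% chosen for naming such transcripts, and it is shown because the intron is short enough to print complete. The donor and acceptor windows are laid out as for Ythdc1.
Mettl3 intron 1 donor: gggcacttggGTgaggtgcggggtggtcgg
Mettl3 intron 6 donor: tcacaggaagGTaatataatccagatatgt
Mettl3 intron 4 acceptor: ccttttttttattttcccAGacgaattatc
Mettl3 intron 8: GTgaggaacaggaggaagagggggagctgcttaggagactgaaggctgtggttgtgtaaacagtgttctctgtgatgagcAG

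Ythdf2, on the minus strand at chr4:132184912-132212303, has 1 retained-intron transcript, Ythdf2-202, which holds the 443-nt intron 1 of Ythdf2-203 (chr4:132211457-132211899). This is the shortest of the 6 introns annotated for the gene, whose median is 11110 nt.
Ythdf2 intron 1 donor: cttggagcagGTacaggcccagcccgcatg
Ythdf2 intron 1 acceptor: gacgtcccctcctctcgcAGagaccaaaag

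Among the writers, Mettl3 had 5.57 TPM in replicate 1 and 14.2 TPM in replicate 2, a mean of 9.90 ± 6.12 (SD, n = 2). The deposited credibility interval, which belongs to a posterior mean estimate and not to the TPM itself, ran in replicate 1 from 5.63 to 7.60, just above the TPM. In replicate 2 it ran from 13.5 to 17.8. The expected counts behind these levels were 375 and 382, almost equal although the library of replicate 1 was deeper.

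Mettl14, which encodes the catalytically inactive partner of the METTL3 heterodimer (minus strand, chr3:123368297-123386108), had 2.15 TPM in replicate 1 and 4.02 TPM in replicate 2, a mean of 3.09 ± 1.32. It was the lowest of the 10 in both libraries and stood at percentile 18.8 of the mean levels of detected protein-coding genes. Its TPM was 0.39 of that of Mettl3 in replicate 1 and 0.28 in replicate 2.

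Wtap (minus strand, chr17:12966796-12994169), the adaptor known to bring the catalytic pair to nuclear speckles, had 34.2 TPM in replicate 1 and 53.3 TPM in replicate 2. Its mean of 43.7 ± 13.5 TPM stood at percentile 90.5, the highest mean of the 10. The ratio to Mettl3 was 6.14 in replicate 1 and 3.74 in replicate 2. Zc3h13 (plus strand, chr14:75284373-75344426), which anchors the complex in the nucleus, had 5.89 and 8.26 TPM in replicates 1 and 2, a mean of 7.08 ± 1.68 at percentile 45.5. The writers thus spanned the range of the 10 genes, although Ythdc1 was slightly above Wtap in replicate 2.

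Ythdc1 had 21.5 TPM in replicate 1 and 54.5 TPM in replicate 2, a mean of 38.0 ± 23.3, at percentile 88.7. Its 3577 and 3670 expected counts were, as for Mettl3, nearly equal in libraries of unequal depth. Its ratio to Mettl3 was 3.85 in replicate 1 and 3.83 in replicate 2 from the gene tables, but 1.90 and 1.72 with another tool run on the same reads.

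The YTHDF proteins are cytoplasmic readers, known for targeting m6A RNAs to decay (YTHDF2) and for overlapping roles in decay and translation. Their RNAs in the nuclear fraction were unequal. Ythdf3 (plus strand, chr3:16183212-16217037) had 18.2 and 34.9 TPM in replicates 1 and 2, a mean of 26.5 ± 11.8. Ythdf1 (minus strand, chr2:180904377-180920949) had 10.4 and 12.7 TPM, a mean of 11.5 ± 1.63. Ythdf2 had 7.63 and 11.3 TPM, a mean of 9.48 ± 2.62. Ythdf3 was thus the highest of the 3 in each library, above the credibility intervals of the other 2. Its TPM in replicate 2 lay above its own interval of 32.2 to 34.5. That of Ythdc1 in replicate 2, at 54.47, lay just above its interval of 49.46 to 54.46.

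Of the erasers, Alkbh5 (plus strand, chr11:60536381-60558512), a demethylase of nuclear m6A, had 10.7 TPM in replicate 1 and 12.7 TPM in replicate 2, a mean of 11.7 ± 1.38. Fto (plus strand, chr8:91313525-91668439), which also demethylates the modified cap-adjacent adenosine, had 3.96 and 6.30 TPM, a mean of 5.13 ± 1.65. Alkbh5 was higher than Fto in each library and their intervals did not overlap.

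By mean TPM the order was Wtap, Ythdc1, Ythdf3, Alkbh5, Ythdf1, Mettl3, Ythdf2, Zc3h13, Fto and Mettl14. Neighbours were counted as separate where their order was the same in both libraries and their credibility intervals overlapped in neither. Of the 9 neighbouring pairs this held for 5, namely Ythdc1 over Ythdf3, Ythdf3 over Alkbh5, Ythdf2 over Zc3h13, Zc3h13 over Fto, and Fto over Mettl14. Wtap and Ythdc1 changed places between the libraries, as did Alkbh5 and Ythdf1, Ythdf1 and Mettl3, and Mettl3 and Ythdf2. A second transcript table, the output of another tool on the same reads and called the second tool below, turned the order of Ythdc1 and Ythdf3 in replicate 1, with 9.63 TPM for Ythdc1 and 12.9 TPM for Ythdf3, and their means there were 20.7 and 20.5 TPM. It also placed Mettl3, at a mean of 11.8 TPM, above Ythdf1 (7.82 TPM) and Alkbh5 (6.62 TPM). In replicate 1, however, Mettl3 had 5.07 TPM there, below Ythdf1 (6.32 TPM) and close to Alkbh5 (4.82 TPM). In replicate 2 it had 18.4 TPM, against 9.31 for Ythdf1 and 8.42 for Alkbh5. The other 4 separate pairs kept their order in both libraries of that table.

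**Figure D1:**
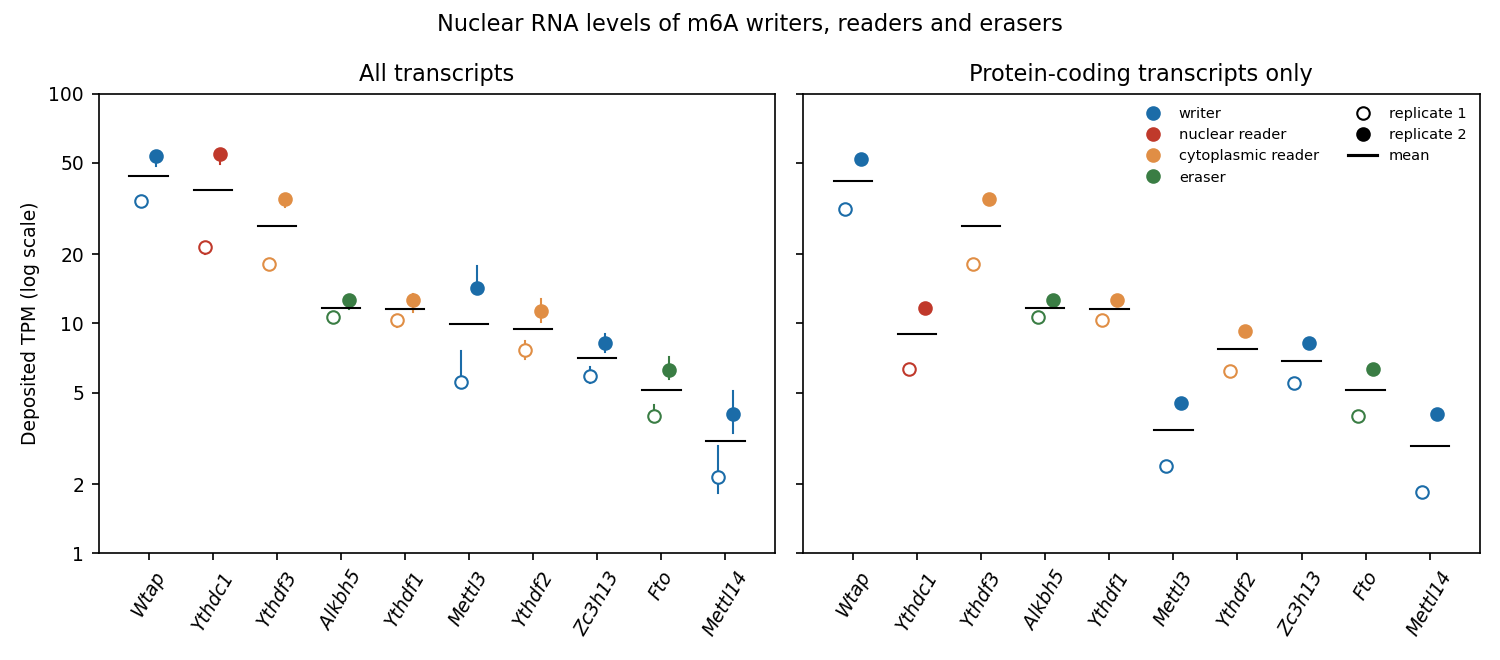
Deposited TPM of the 10 genes on a log scale, in order of mean TPM over all transcripts (left) and over protein-coding transcripts alone (right). Open points are replicate 1, filled points replicate 2, black bars their mean, and thin vertical lines in the left panel the deposited credibility intervals. Ythdc1 and Mettl3 lie lower in the right panel, where Ythdc1 averages 9.01 TPM and Mettl3 3.45 TPM.

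The order changed when TPM was summed over protein-coding transcripts alone, a summary chosen after the data were seen. Mettl3 had 2.41 TPM in replicate 1 and 4.49 TPM in replicate 2 on coding transcripts, a mean of 3.45 ± 1.47. Mettl14 had 1.85 and 4.02 TPM. On coding transcripts the ratio of Mettl14 to Mettl3 was 0.77 in replicate 1 and 0.90 in replicate 2, against 0.39 and 0.28 over all transcripts. With the second tool the coding ratio was 0.80 in replicate 1 and 0.86 in replicate 2, and the ratio over all transcripts was 0.20 and 0.12.

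Ythdc1 had 6.32 TPM in replicate 1 and 11.7 TPM in replicate 2 on coding transcripts, which placed it below Ythdf3, Alkbh5 and Ythdf1 in each library. With the second tool its coding transcripts had 10.1 TPM in replicate 2, above Alkbh5 (8.28 TPM) and Ythdf1 (9.31 TPM). With the first tool the coding ratio of Ythdc1 to Mettl3 was 2.62 in replicate 1 and 2.61 in replicate 2. It was 3.19 and 3.82 with the second tool. The ratio of Wtap to Mettl3 on coding transcripts was 13.1 and 11.6 with the first tool. For the other 6 genes, coding transcripts held between 81.5% and 100% of the gene's TPM in each library with the first tool. Their ratios to Mettl3 were also higher by this measure, with Fto at 1.65 and 1.41 times the Mettl3 level. The second tool put coding transcripts at 67.2% and 79.4% of Zc3h13 in replicates 1 and 2. It gave 69.1% and 73.4% for Ythdf3 and 73.9% and 84.9% for Ythdf2, while Alkbh5, Fto and Ythdf1 stayed at 92.8% or more.

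The 10 genes differed in how much of their TPM lay on transcripts of the annotated type retained intron. Only 4 of the genes, Ythdc1, Mettl3, Ythdf2 and Mettl14, have such a transcript in the annotation, so no share can be given for the other 6. The share for Ythdc1 was 60.2% in replicate 1 and 74.0% in replicate 2 (67.1% ± 9.75, SD, n = 2). For Mettl3 it was 45.1% in replicate 1 and 45.3% in replicate 2 (45.2% ± 0.080). For Ythdf2 it was 18.5% in each library, and for Mettl14 14.0% in replicate 1 and 0% in replicate 2.

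Over all 6941 genes with such a transcript and a mean count of 10 or more, the median share was 23.6% in replicate 1 and 30.0% in replicate 2. Against those genes the mean share of Ythdc1 stood at percentile 93.6, that of Mettl3 at 76.7, that of Ythdf2 at 34.6 and that of Mettl14 at 14.0. The median of the 4 genes was 31.8% in replicate 1 and 31.9% in replicate 2. Ythdc1 and Mettl3 thus lay above the median of all such genes in both libraries, and Ythdf2 and Mettl14 below it.

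Shares of expected counts, which differ from the TPM shares above, are given here with Wilson intervals of 95%. The intervals cover counting error only, and not the assignment of reads to overlapping transcripts. Of the counts of Ythdc1, 63.0% (61.4 to 64.6) lay on its retained-intron transcripts in replicate 1 and 75.5% (74.1 to 76.8) in replicate 2, so the libraries differed by more than counting error. Of the counts of Mettl3 it was 30.9% (26.5 to 35.8) in replicate 1 and 31.9% (27.5 to 36.8) in replicate 2, which was not a detectable difference at this depth. For Ythdf2 it was 13.3% (11.5 to 15.3) and 12.5% (10.4 to 14.9). The retained-intron transcript of Mettl14, Mettl14-205, rested on 2 counts in replicate 1 and 0 of 318 counts in replicate 2, which allows up to 1.19%.

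**Figure D2:**
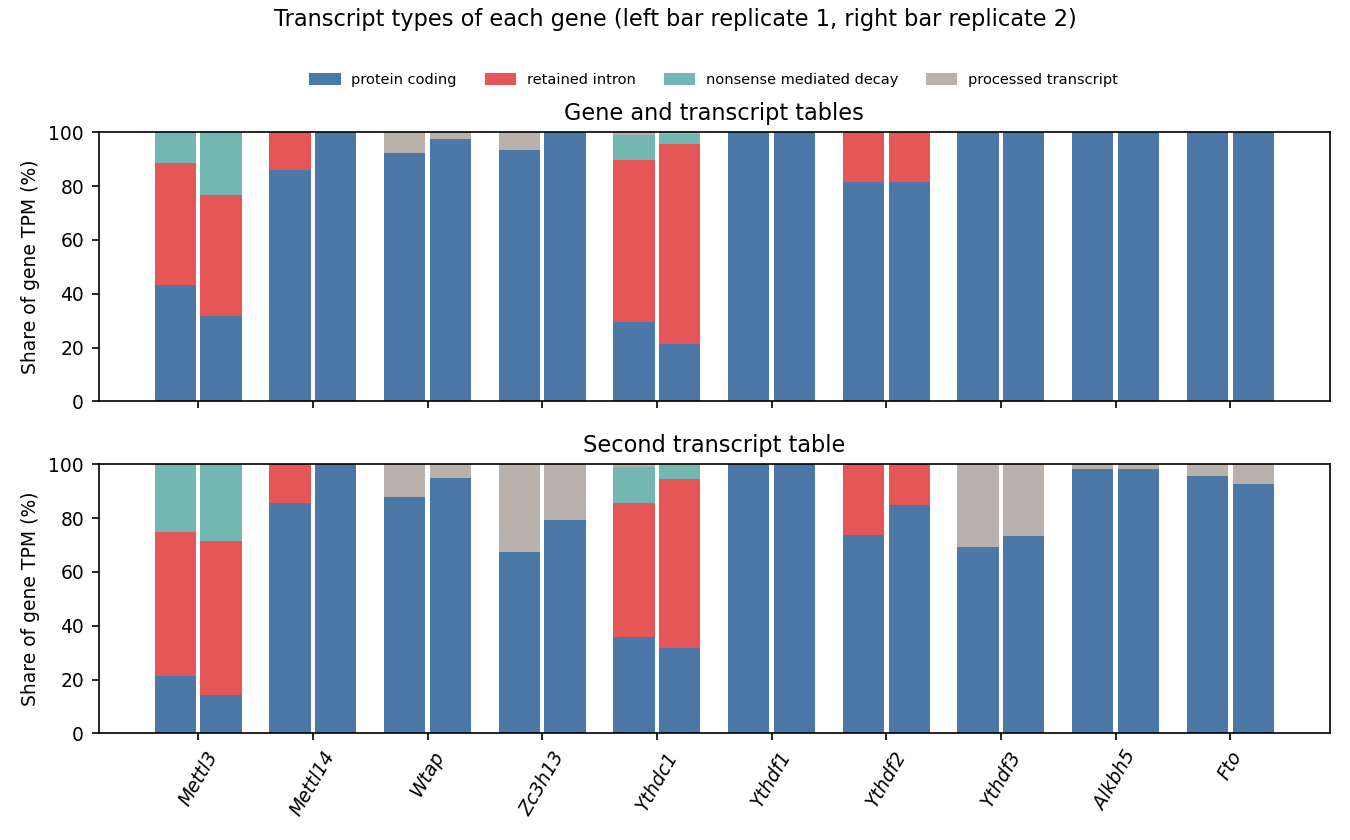
Share of each gene's TPM by annotated transcript type, in percent, with replicate 1 as the left and replicate 2 as the right bar of each pair. The upper panel uses the gene and transcript tables and the lower panel the second transcript table; in both, the retained-intron share of Ythdc1 and of Mettl3 is 45.1% or more in every bar.

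The Ythdc1 share depends on the transcript Ythdc1-204 described above. Ythdc1-204 had 4.20 TPM in replicate 1 and 15.9 TPM in replicate 2, or 19.6% and 29.1% of the gene, and led the gene by its mean share. Ythdc1-207, with the 2 whole introns, had 4.44 TPM in replicate 1 and 11.8 TPM in replicate 2, or 20.7% and 21.6%. Ythdc1-209, a single exon in intron 1 with 3299 of 3335 bases outside other exons, took 11.6% and 10.8%. Ythdc1-206, with 3542 of 4006 bases outside other exons, took 8.29% and 12.4%.

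Counting only retained-intron transcripts with 50 or more bases outside other exons, a rule chosen after these transcripts were seen, left Ythdc1 at 40.6% in replicate 1 and 44.8% in replicate 2. That mean of 42.7% ± 2.97 stood at percentile 73.5 of all genes by the same rule, close to the 76.7 of Mettl3, whose share did not change. The Ythdc1 share of TPM in replicate 2 was above that in replicate 1 by 13.8 percentage points with Ythdc1-204 and by 4.21 without it. TPM is corrected for length, and by expected counts this short transcript weighed less. Ythdc1-204 held 5.85% of the gene's counts in replicate 1 and 9.33% in replicate 2, and Ythdc1-207 held 37.2% and 41.0%.

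In Mettl3 the coding transcript Mettl3-201 led, with 2.41 TPM in replicate 1 and 4.33 TPM in replicate 2, or 43.3% and 30.4% of the gene. Mettl3-215, in intron 1, had 1.07 and 2.40 TPM, or 19.2% and 16.9%. Mettl3-203, which runs into intron 6, took 16.7% in replicate 1 and 7.10% in replicate 2, and Mettl3-207, with intron 4 sequence, took 5.40% and 15.2%. The retained-intron share was nearly the same in both libraries while the split between these transcripts was not. That split rests on few counts, 33.5 and 15.8 for Mettl3-203 and 10.2 and 32.1 for Mettl3-207 in replicates 1 and 2. With the second tool Mettl3-207 took 5.24% and 9.07%. Mettl3-204, with the 82-nt intron 8, took 3.78% and 6.11%. Transcripts typed as targets of nonsense-mediated decay took 11.5% of Mettl3 in replicate 1 and 23.2% in replicate 2.

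**Figure D3:**
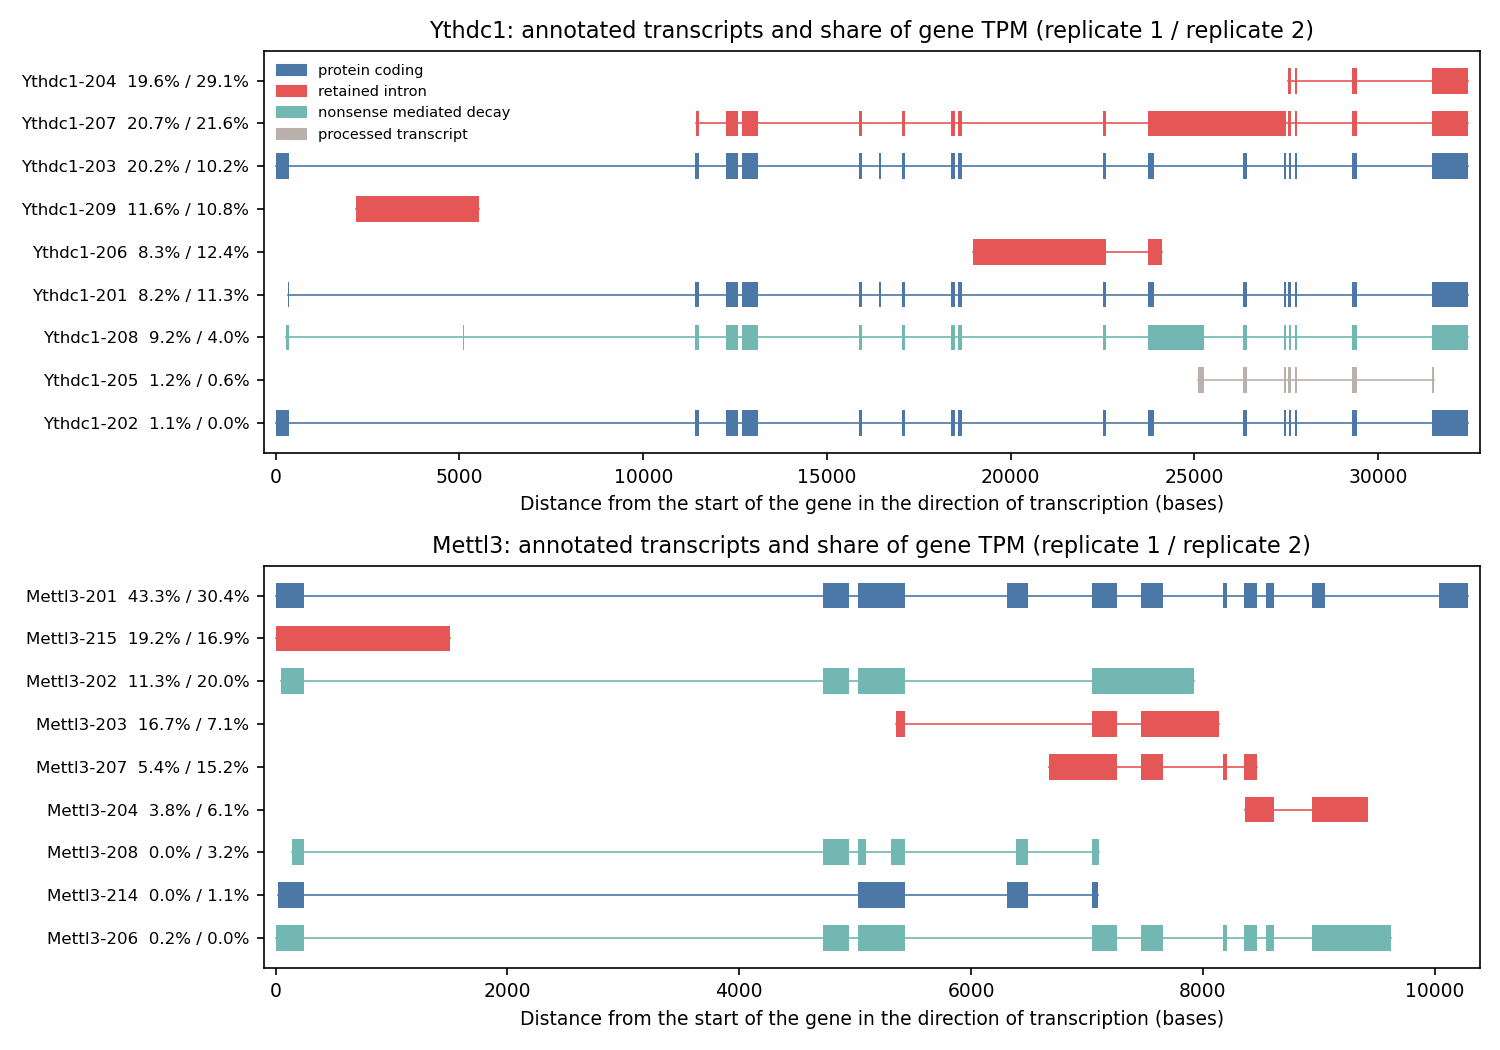
Annotated transcripts of Ythdc1 and Mettl3 with a share above 0, drawn along the gene in bases from its start in the direction of transcription, with boxes for exons and lines for introns, coloured by annotated type. The percentages are shares of the gene's TPM in replicates 1 and 2; Ythdc1-204 shows only exons shared with other transcripts at this scale, while Ythdc1-207 has a long exon that spans 2 introns.

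With the second tool Mettl3 and Ythdc1 again had the highest shares of the 4 genes, with Mettl3 ahead in replicate 1 and Ythdc1 in replicate 2. It put the retained-intron share of Mettl3 at 53.3% in replicate 1 and 57.3% in replicate 2, and that of Ythdc1 at 49.8% and 62.8%. It gave Ythdc1-204 only 5.45% in replicate 1 and 11.5% in replicate 2, and Ythdc1-207 18.1% and 22.3%. For Mettl3 it put 27.6% in replicate 1 and 28.1% in replicate 2 on Mettl3-203, which led the gene there, and 21.4% and 14.4% on coding transcripts. The share of Ythdf2 was 26.1% in replicate 1 and 15.1% in replicate 2, and that of Mettl14 14.5% and 0%.

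Apart from Ythdc1, every gene was led by a coding transcript in the mean of both libraries, whereas with the second tool Ythdc1 was led by the coding Ythdc1-203 and Mettl3 by the retained-intron transcript Mettl3-203. That tool named the same leading transcript in 7 of the 10 genes, with Mettl3, Mettl14 and Ythdc1 as the exceptions. Alkbh5-201 took 100% of Alkbh5, and Ythdf1-201 took 95.9% and 92.9% of Ythdf1 in replicates 1 and 2. Ythdf3-201 took 73.4% and 75.3%, Ythdf2-203 took 68.7% and 76.0%, and Zc3h13-203 took 59.4% and 56.1%. Wtap was more divided, with Wtap-204 at 33.0% in replicate 1 and 45.0% in replicate 2.

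In Mettl14 and Fto the split between coding transcripts differed between the libraries. Mettl14-204, the leading transcript by mean share, took 21.9% in replicate 1 and 69.7% in replicate 2. Mettl14-201, named after its values were seen, took 54.0% and 0%. The gene had 312 and 318 expected counts in all, so this split rests on few reads. Fto-201 took 69.0% in replicate 1 and 45.0% in replicate 2. For Ythdf3 the second tool put 30.9% and 26.6% on transcripts typed as processed transcript, to which the first assigned 0% in both libraries.

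The levels may also include reads that other genes could give. Mettl3 shares 1561 bases at its 3′ end with Tox4 on the opposite strand, which had 12.5 TPM in replicate 1 and 16.9 TPM in replicate 2, more than the coding transcripts of Mettl3. Of the 31-base words of Mettl3 transcripts, 20.7% occurred on either strand in transcripts of another gene, 877 of them in Tox4. The strand setting of the counting was not given in the sources used here, so reads of this stretch may belong to either gene. Ythdf2 shared 12.7% of its words, mainly with the pseudogene Gm6823, and Wtap 9.64%, mainly with the pseudogene Gm14292. Gm6823 had 0 counts in both libraries and Gm14292 had 1.03 and 2.06. Ythdc1 shared 6.99% of its words, 605 of them with Gm43055, a long non-coding RNA gene. Gm43055 overlaps 12886 bases of Ythdc1 on the same strand and had 0 counts in both libraries. Reads of the sequence they share may belong to either gene. The 3 Ythdf genes shared no 31-base word with each other.

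The libraries were compared gene by gene to see how far the replicates differed for these genes. On expected counts rounded to whole numbers and scaled by TMM, an exact two-sided binomial test with Benjamini-Hochberg adjustment over 14698 genes covers counting error only, and compares 2 libraries, not conditions. It called 7 of the 10 genes, against 59.9% of all genes tested. Of these, 5 were higher in replicate 2 (29.7% of all genes) and 2 were lower (30.2%). The median log2 ratio of replicate 2 over replicate 1 was 0.09 for the 10 genes and 0.01 for all genes.

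The writers Mettl3 and Mettl14 were higher in replicate 2 by log2 ratios of 0.61 each, with adjusted p of 2.51e-08 and 4.00e-07 in the exact binomial test. Ythdc1 was higher by 0.62 (adjusted p = 4.41e-73, exact binomial test), Ythdf3 by 0.31 (4.34e-20) and Wtap by 0.13 (0.00287). Alkbh5 and Ythdf1 were lower in replicate 2, with log2 ratios of -0.40 (6.44e-18) and -0.39 (6.28e-09). Fto, Ythdf2 and Zc3h13 had log2 ratios of 0.06, 0.03 and -0.06 and did not pass the threshold of 0.05. With library size in place of TMM, Fto (adjusted p = 0.0161, exact binomial test) and Ythdf2 (0.00637) were also called higher. That made 7 genes higher and 2 lower, against 5760 and 3241 of all 14698 genes tested. With the second tool Ythdf2 (0.000113) and Zc3h13 (5.92e-05) were called lower. The call of Wtap was lost with the second tool (0.610) and with no minimum count (0.0561), and that of Ythdf3 with the second tool (0.0664). On the TPM scale all 10 genes were instead higher in replicate 2, with a median log2 ratio of 0.65, against 0.53 for the detected protein-coding genes.

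The common biological coefficient of variation, which measures the spread between replicates beyond counting error, was 0.335 in edgeR over the same genes. It corresponds to a standard deviation of 0.68 for the log2 ratio of 2 libraries. With TMM scaling all 10 genes lay within that value, as did 67.8% of all genes tested. The value was estimated from the same 2 libraries that it is compared with. Raising the count minimum to 100, which all 10 genes pass, lowered the coefficient to 0.291 and so narrows the range. Mettl3, Mettl14 and Ythdc1, with TMM log2 ratios of 0.61, 0.61 and 0.62, lay outside that narrower range. With library size in place of TMM the coefficient was 0.347 and the median log2 ratio of all genes was 0.17. Mettl3, Mettl14 and Ythdc1 then had log2 ratios of 0.77, 0.78 and 0.79. These lay beyond the 0.68 of the TMM setting and also beyond the slightly wider range that 0.347 gives. For these genes the result thus depends on the setting. The directions of 4 ratios turned with the second tool, Wtap to -0.02, Ythdf3 to -0.06, Ythdf2 to -0.23 and Fto to -0.03.

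**Figure D4:**
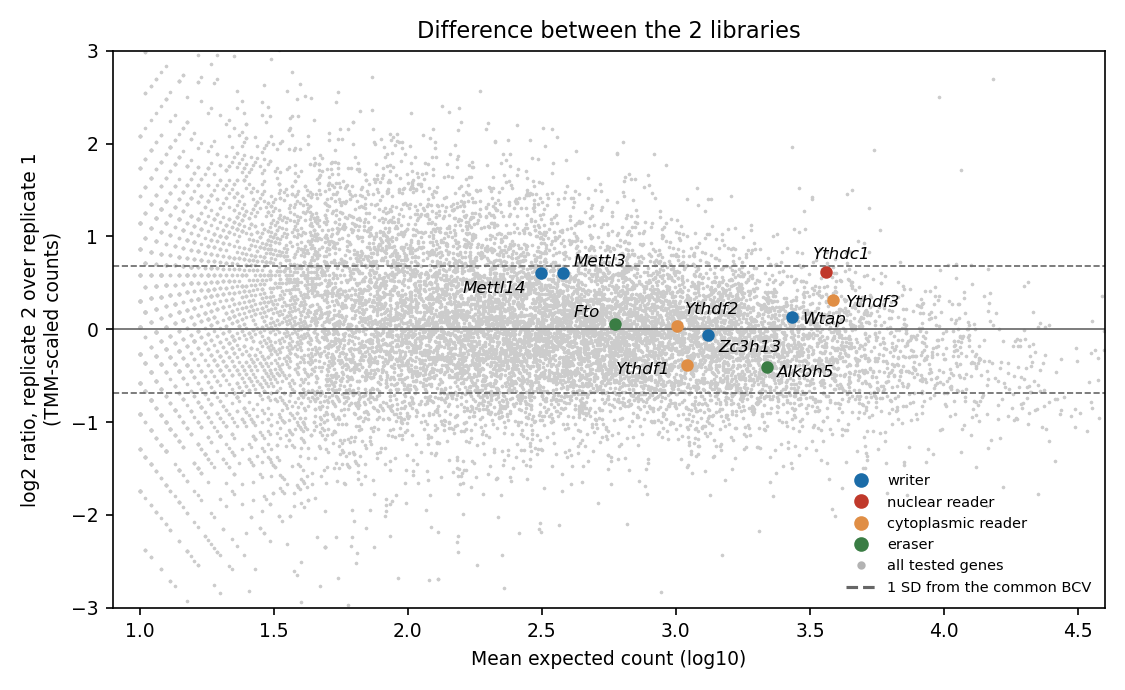
Log2 ratio of TMM-scaled counts, replicate 2 over replicate 1, against the mean expected count (log10) for all 14698 tested genes in grey and the 10 genes in colour. Dashed lines mark the 0.68 that the common coefficient of variation gives for 1 SD; all 10 genes lie between them, and 99 genes beyond a log2 ratio of 3 in size are outside the axis.

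The ratio moved with base composition over all genes. Among the 3672 genes whose most abundant transcript was lowest in GC content the median log2 ratio was 0.44, and among the 3672 highest in GC it was -0.38. Ythdf3, at 38.4% GC, and Ythdc1, at 40.7%, were higher in replicate 2, and Ythdf1, at 49.1%, was lower. The value for Ythdc1 is that of Ythdc1-204, its most abundant transcript with the first tool but not with the second. Mettl3, at 50.2% GC, was higher in replicate 2. Ythdf2, at 46.1%, Zc3h13, at 50.1%, and Fto, at 52.1%, did not pass the threshold. The part of base composition in these differences was not tested.

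A wider list of 19 genes of the pathway included 4 partners of the writer complex, 5 other N6-adenosine methyltransferases or their cofactor, the reader Ythdc2 and 9 proteins reported to bind m6A RNA. Of these, 18 were detected, and the list's median was 6.41 TPM in replicate 1 and 9.06 TPM in replicate 2, close to the 6.53 and 9.53 of detected protein-coding genes. The highest were 3 RNA-binding proteins. Hnrnpa2b1, a nuclear ribonucleoprotein of splicing, had 150.2 and 267.9 TPM in replicates 1 and 2, Prrc2a had 49.9 and 59.6, and Hnrnpc, which binds RNA made accessible by m6A, had 28.4 and 61.0.

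At the other end, Igf2bp1, a fetal mRNA-binding protein, was listed at 0 in both libraries, whereas the second tool gave it 1.11 TPM in replicate 1 and 4.35 TPM in replicate 2, of which 0.0050 and 0.026 TPM lay on coding transcripts. Mettl16, which methylates the U6 snRNA, had 1.54 TPM in replicate 1 and 2.85 TPM in replicate 2, and Mettl5, a methyltransferase of ribosomal RNA, had 1.30 and 3.81 TPM. In the exact binomial test 8 of the 18 genes tested were higher in replicate 2, against 29.7% of all genes, and 5 were lower, against 30.2%. The second tool, with which 19 were tested, called 6 higher and 11 lower, against 7599 and 7317 of all 23709 genes tested. With log2 ratios of 1.19 and 1.54, Igf2bp3 and Mettl5 were the only 2 of the list beyond 1, on 123 and 187 counts for Igf2bp3 and 70 and 136 counts for Mettl5. With TMM scaling they were also the only ones beyond the 0.68 of the replicate spread. Their log2 ratios with the second tool were 0.66 and 0.85, neither beyond 1.

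**Figure D5:**
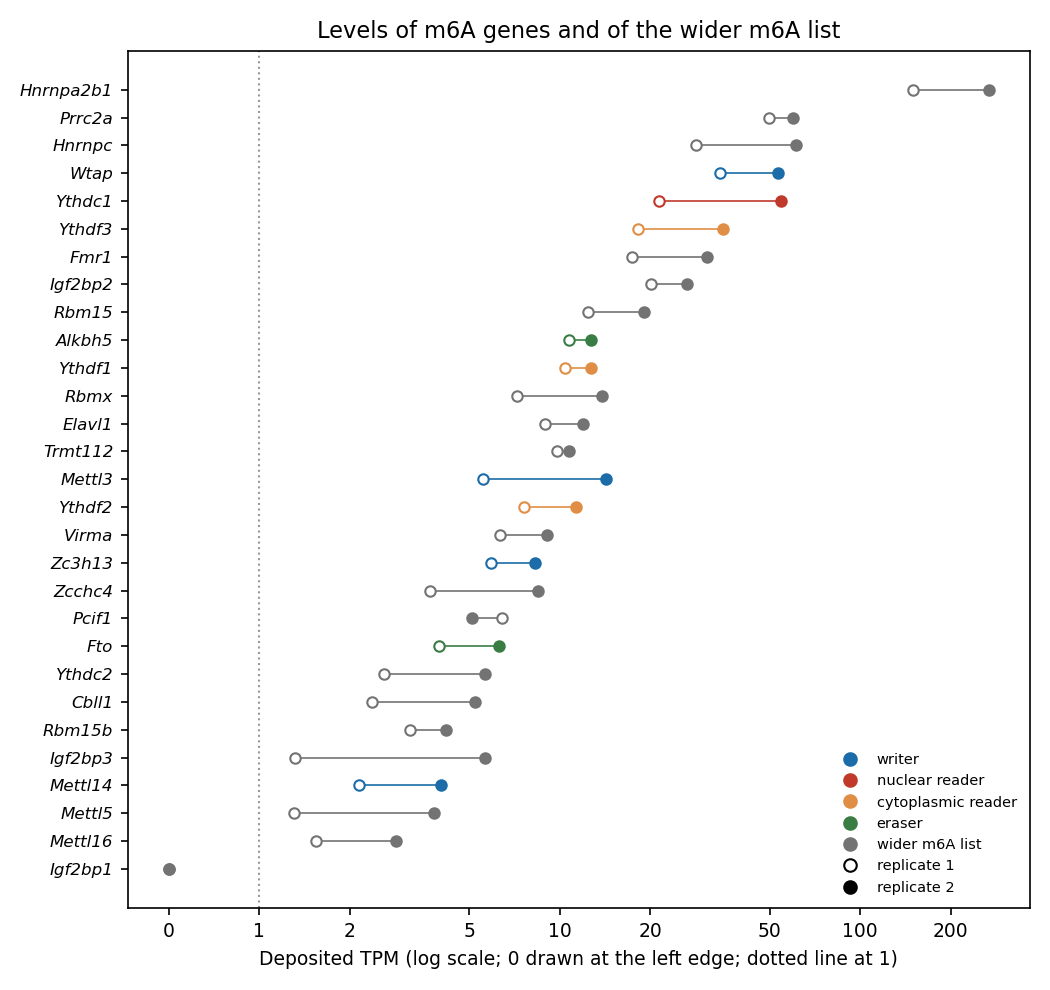
Deposited TPM (log scale) of the 10 genes in colour and the 19 genes of the wider list in grey, ordered by mean, with open points for replicate 1 and filled points for replicate 2. Hnrnpa2b1 is highest at 150.2 and 267.9 TPM, Mettl14 lies near the low end at 2.15 and 4.02 TPM, and Igf2bp1 is at 0.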

How the data were processed

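Per the file headers, the authors' tables gave expected counts, which are estimates and need not be whole, and TPM for genes and transcripts on mm10 with GENCODE M21, under RSEM-style column names. A further deposited transcript table gave such counts and TPM under kallisto-style names (the second tool). The deposited credibility bounds of TPM were treated as a signal value that is never negative. Aligner, versions and strand setting are not given in the sources used here. Rows naming no gene, 1.79% of counts in replicate 1 and 0.318% in replicate 2, were left out.

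Counts were rounded, scaled by TMM in edgeR 4.0.16 (R 4.3.3) and compared between the libraries by an exact binomial test with Benjamini-Hochberg adjustment, for genes averaging at least 10 counts. The common biological coefficient of variation came from edgeR's intercept-only model. DESeq2 1.42.0 size factors were an alternative. The code was tested on simulated data. Shares came from transcript TPM. Splice sites were read from GENCODE M21 transcripts and gene models. Tests ran in scipy 1.17.1 and tables in pandas 2.3.3 with numpy 2.4.6, under Python 3.11.15; figures were drawn with matplotlib 3.10.9.

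The genes and lists were chosen with earlier results of these data known. All 10 genes are named, of the wider list the 3 highest, the 3 lowest and those called beyond a log2 ratio of 1, and of transcripts the leading one of each gene and retained-intron transcripts with a mean share of 10% or more. Likeness to other genes was not measured, since there are 2 libraries of 1 condition. Alternatives covered both tools, posterior mean values, scaling, filters and each library left out.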

Additional observations from a re-analysis of the deposited data

How the results depend on the processing

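The median level of the 10 genes was 10.8 TPM as the mean of both libraries. It was 7.37 with the second tool and 42.4 when TPM was rescaled without mitochondrial and short RNA genes; without one library it ranged from 9.01 to 12.7. Of the 10 genes detected, 5 reached a TPM of 10 in both libraries. The second tool called 3 genes higher and 4 lower in replicate 2, in place of 5 and 2. Of all 23709 genes it tested, 7599 were higher and 7317 lower. Library size gave 7 higher and 2 lower, against 5760 and 3241 of all 14698 genes. With the second tool the wider list gave 11 lower in place of 5 (3 with library size in place of TMM), and that tool called 14916 of 23709 rather than 8801 of 14698 genes overall. The reversed log2 ratios were those of Wtap (-0.0198), Ythdf2 (-0.226), Ythdf3 (-0.0579) and Fto (-0.0347) with the second tool, Ythdf2 (-0.00595) with no minimum count, and Zc3h13 (0.10) with library size, which moved the median of all genes to 0.17. The cause was not tested.

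The median retained-intron share of the 4 genes was 31.8%, and 37.1% with the second tool, 22.2% of expected counts, 30.4% with posterior mean TPM and 40.5% over all types other than protein coding. With the rule of 50 bases outside other exons it was 30.6%, an alternative chosen after seeing the data, as were both summaries on coding transcripts. Without one library it ranged from 31.8% to 31.9%. For all genes the share was 26.8%, and 33.1% with the second tool. The coefficient of variation was 0.291 with a mean count of 100 or more, 0.347 with library size and 0.381 with the second tool. The leading transcripts were shared in 8 to 10 of 10 genes when one library was left out.

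No paired analysis was possible because there is 1 group. The comparison between libraries cannot be made without either of them. The planned comparison of protein sequences was not run, as no protein table was used here. Depth limits the isoform split of Mettl14 and Mettl3 most.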
